A study of Rattus norvegicus with 12 samples.

Results

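The S100 genes described here are S100a8, S100a9, S100a4, S100a6, S100a10 and S100a11, which encode members of a family of small calcium-binding proteins. They were chosen by name, as the probe sets with a single gene symbol equal to one of these 6. Each gene had 1 probe set on the array, which gave 6 of 15923 probe sets and 6 of 10412 named genes. S100a8 and S100a9, known as abundant proteins of neutrophils and called the pair here, were set against the other 4 genes, known from stromal cells and called the S100a4 set, across the 4 groups of rats. These names stand for the genes alone, since RNA from ventricle tissue does not show which cells carried it.

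RNA from ventricle was hybridised to 12 arrays, each from a different rat, with 3 rats per group. In the 7 d IR group the left anterior descending coronary artery (LAD) was occluded for 30 min and then reperfused (ischaemia and reperfusion, IR), and the tissue was taken after 7 days. The 7 d sham rats had the surgery without occlusion and were sampled on the same day, and the 2 d IR and 2 d sham groups were the same at 2 days. All 4 groups therefore had surgery, no group was left unoperated, and the labels give no strain, age or sex and do not say which region of the ventricle was taken. Each value is the authors' MAS5 intensity of a probe set on a linear scale, called signal below. Arrays are named by the replicate number in the sample title.

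S100 proteins carry EF-hand motifs, which in most members, though not in S100A10, change shape on binding calcium and expose a surface that grips partner proteins. Inside cells they act on the cytoskeleton, on annexins and on enzymes, and some are released and act on receptors of other cells. S100A8 and S100A9 form the heterodimer calprotectin, which neutrophils and monocytes hold in their cytoplasm and release at sites of injury, where it can signal through the receptors TLR4 and RAGE. S100A4 is known from fibroblasts and motile cells, where it binds non-muscle myosin. S100A6 binds the calcyclin-binding protein, S100A10 forms a complex with annexin A2 at the plasma membrane, and S100A11 binds annexin A1.

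RefSeq places the 6 genes on rat chromosome 2 (GRCr8). S100a8 and S100a9 are neighbours there, as are S100a11 and S100a10, and S100a4 is separated from S100a6 by a single coding gene, S100a5. The stretch just before the gene start is shown for the 4 of the 6 genes that matched an entry in the RefSeq promoter table (GRCr8), to set a member of the pair beside 3 genes of the S100a4 set. S100a8 and S100a10 had no entry. Each line gives 100 bases, 5′ to 3′ on the strand of the gene and ending at the base before its start, with the matched motif in capitals. The capitals mark a TATA box (TATAAA) in S100a9 and S100a4 and an Sp1 motif (GGGCGG) in S100a6 and S100a11.
S100a9, chr2:178490623-178490722, minus strand: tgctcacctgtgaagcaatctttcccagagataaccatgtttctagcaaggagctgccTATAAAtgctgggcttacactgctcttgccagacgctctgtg
S100a4, chr2:178388429-178388528, plus strand: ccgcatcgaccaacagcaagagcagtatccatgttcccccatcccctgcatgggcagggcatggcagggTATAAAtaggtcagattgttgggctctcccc
S100a6, chr2:178398437-178398536, plus strand: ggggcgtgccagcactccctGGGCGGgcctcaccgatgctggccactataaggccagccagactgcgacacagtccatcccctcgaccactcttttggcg
S100a11, chr2:181875032-181875131, plus strand: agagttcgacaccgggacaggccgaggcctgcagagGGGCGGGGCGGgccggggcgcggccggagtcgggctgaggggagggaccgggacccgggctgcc

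The TATA box began 42 bases before the start of S100a9 and 31 bases before that of S100a4. The Sp1 motif began 80 bases before the start of S100a6, and S100a11 had 2 copies, at 64 and 59 bases, which share 1 base. All motifs were searched on both strands of the 250 bases before each start. Of 33469 promoters in the table, 12.9% held TATAAA and 30.5% held GGGCGG. The AP-1 motif, TGANTCA, was held by 6.34% of promoters and was not found in the 4 windows. The C/EBP motif, TTGCNNAA, held by 9.22%, was likewise not found. Nor was the CCAAT box, held by 34.0%. The STAT motif, TTCNNNGAA, held by 7.67%, was not found either. A match says only that these letters are present.

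Array medians lay between 637.3 and 719.0, and the deposited values had been scaled to a common trimmed mean per array. By macrophage and monocyte markers, 2 d IR replicate 69 was the highest and 7 d sham replicate 82 the lowest array of its group. Results are given with and without these 2 arrays below. Other arrays stood out in other genes, as given below. The tissue label was borne out by its markers: all 19 cardiomyocyte genes of the 20 listed that are on the array passed the filter on dim probe sets. For the neutrophil label of S100a8 and S100a9 few genes could be tested, and which cells carried their RNA was not tested. The filter passed 10527 of all 15923 probe sets. Of 30 listed neutrophil genes 15 were on the array and 5 of these passed the filter (Slpi, Hp, Lcn2, Il1r2 and Fcnb), whereas Mmp8, Mmp9, Cxcr1, Cxcr2, Np4, Defa5, RatNP-3b, Padi4, Cebpe and Pglyrp1 were too dim to be tested. The listed defensin genes RatNP-3b and Defa5 were dim in every group. RatNP-3b had a mean signal of 22.5 in 7 d IR, 12.4 in 7 d sham, 22.2 in 2 d IR and 26.9 in 2 d sham ventricles. Defa5 had 30.1, 37.4, 36.2 and 40.5 in the same order. Pglyrp1, though too dim to be tested, had a signal of at most 212 in 2 d sham ventricles. Its signal ran from 439.6 to 620.4 in 7 d sham and from 276.7 to 428.5 in 2 d IR ventricles. Neither of these groups overlapped 2 d sham. Of all probe sets tested, 7.27% lay above 2 d sham without overlap in 7 d sham and 13.9% in 2 d IR ventricles. In 7 d IR ventricles it ran from 310.2 to 583.7, which overlapped both 7 d sham and 2 d IR. For the other dim genes named, 2 d sham overlapped both 7 d sham and 2 d IR.

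S100a8 encodes the smaller subunit of calprotectin, and its signal differed both with occlusion and with the day. It was 5881.8, 3564.1 and 2279.4 on the 7 d IR arrays, against 1119.3, 2733.0 and 446.6 on the 7 d sham arrays. It was 997.6, 1325.1 and 672.3 on the 2 d IR arrays, against 326.2, 215.4 and 437.5 on the 2 d sham arrays. The group means fell in the order 7 d IR, 7 d sham, 2 d IR and 2 d sham, at 3908 ± 1826, 1433 ± 1175, 998 ± 326 and 326 ± 111 (SD, n = 3 each). 7 d sham replicate 81 lay above the lowest 7 d IR array, replicate 48, so these groups overlapped, and 2 d IR and 2 d sham did not. The 3 values of 7 d sham spanned those of 2 d IR, so 7 d sham and 2 d IR, neighbours in that order, did not differ beyond their spread.

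S100a9, the larger calprotectin subunit, followed the same order with a smaller gap between IR and sham at 7 d. Its signal was 17896.0, 10466.9 and 9268.4 on the 7 d IR arrays, against 7699.2, 12064.2 and 4052.8 on the 7 d sham arrays. It was 5330.2, 4214.7 and 2911.5 on the 2 d IR arrays, against 1218.5, 1249.7 and 2224.7 on the 2 d sham arrays. Means were 12544 ± 4674 in 7 d IR, 7939 ± 4011 in 7 d sham, 4152 ± 1211 in 2 d IR and 1564 ± 572 in 2 d sham ventricles (SD, n = 3 each). 7 d sham replicate 81 was again high and lay above 2 of the 3 7 d IR arrays, and the lowest 7 d sham array, replicate 82, lay within the range of 2 d IR.

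S100a4, a partner of non-muscle myosin often used to mark fibroblasts, was high in both IR groups and low in both sham groups. Its signal was 16041.9, 20911.2 and 11770.6 in 7 d IR, against 10516.8, 8840.1 and 6542.0 in 7 d sham ventricles. At 2 d it was 19582.4, 12069.5 and 15691.2 in IR, against 6682.6, 10372.5 and 6632.8 in sham ventricles. Neither pair of groups overlapped, and the means of 16241 ± 4574 in 7 d IR and 15781 ± 3757 in 2 d IR differed by far less than their spread (SD, n = 3 each), as did 8633 ± 1995 in 7 d sham and 7896 ± 2145 in 2 d sham. S100a6, or calcyclin, showed the same layout, with a signal of 25022.2, 25025.3 and 17373.0 in 7 d IR against 16017.9, 11808.1 and 7449.1 in 7 d sham ventricles. At 2 d its signal was 23351.4, 23769.5 and 20851.0 in IR, against 11853.0, 13267.9 and 18006.2 in sham ventricles, again with no overlap.

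S100a10, the annexin A2 partner, had a signal of 9743.0, 13959.1 and 10575.6 in 7 d IR, against 8458.8, 7221.1 and 4578.9 in 7 d sham ventricles. At 2 d it had 13632.3, 10419.1 and 10028.3 in IR, against 6773.4, 7190.2 and 6738.2 in sham ventricles. Every IR array lay above every sham array of its day, and the 2 d sham arrays were close together. S100a11, the annexin A1 partner, had 25348.8, 24121.2 and 19294.7 in 7 d IR, against 12408.8, 13870.7 and 7782.8 in 7 d sham ventricles. At 2 d it had 22109.0, 17284.0 and 16795.4 in IR, against 7751.8, 10522.8 and 10984.8 in sham ventricles. The lowest of the 6 IR arrays lay above the highest of the 6 sham arrays for S100a11, S100a10 and S100a4, but not for S100a6. The share of all probe sets with this separation was not computed. In 7 d sham ventricles replicate 82 had the lowest signal of all 6 genes.

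**Figure D1:**
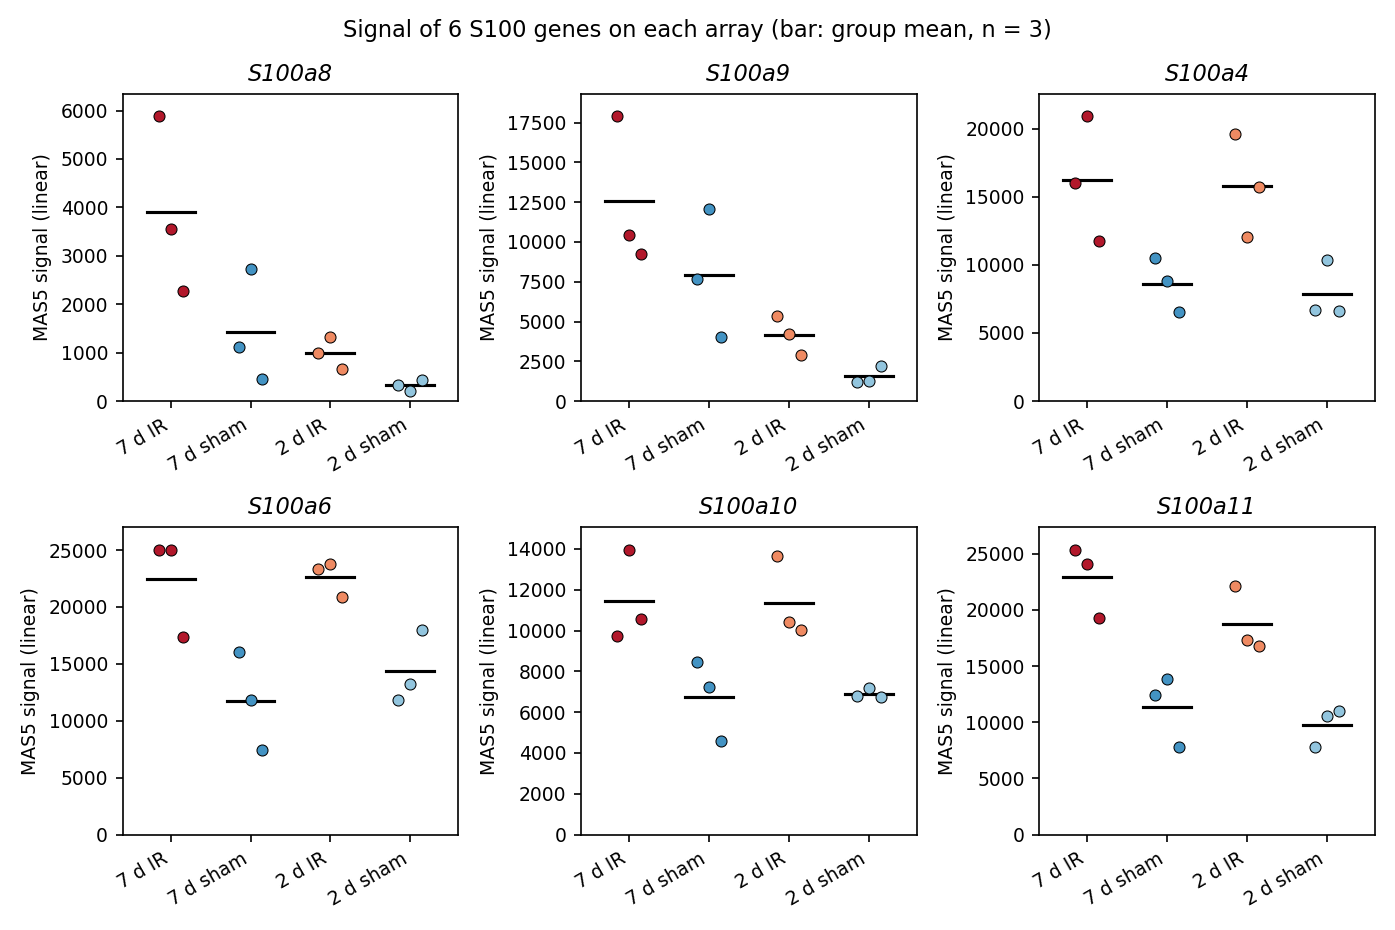
MAS5 signal (linear axis from 0) of each of the 6 S100 genes on each of the 12 arrays, with a bar for the mean of each group of 3 rats. S100a8 and S100a9 step down over 7 d IR, 7 d sham, 2 d IR and 2 d sham, whereas the 4 genes of the S100a4 set are high in both IR groups and low in both sham groups.

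At 7 d, 5 of the 6 genes rose in IR against sham ventricles, and the remaining gene, S100a9, was higher without passing the test. The test was limma's moderated test on log2(signal + 195), with p-values adjusted over all 10527 probe sets tested and a call at an adjusted p under 0.05; it measures the spread between the rats. Over all probe sets tested, 6.22% were called higher in this comparison. All 3 IR arrays lay above all 3 sham arrays for the 4 genes of the S100a4 set, as they did for 16.6% of all probe sets. The median change of the 6 genes on the log2 scale was 0.93, beside 0.01 over all probe sets. S100a8 rose 2.84-fold (log2 change 1.51, SE 0.43, adjusted p = 0.0354) and ranked 20th of 7720 genes by change, although its groups overlapped. S100a11 rose 2.05-fold (1.03, SE 0.20, adjusted p = 0.00876), S100a6 1.96-fold (0.97, SE 0.23, adjusted p = 0.0170), S100a4 1.85-fold (0.88, SE 0.24, adjusted p = 0.0276) and S100a10 1.70-fold (0.77, SE 0.19, adjusted p = 0.0222). For S100a9 the log2 change was 0.72 (95% interval -0.02 to 1.45, adjusted p = 0.189). In ventricle tissue, a change in the number of cells of a type and a change in RNA per cell cannot be told apart, here and below. The 7 d IR arrays carry title numbers 44 to 48 and all other arrays 69 to 82. Their meaning is not given in the sources used here, and a batch that went with them cannot be told apart from the 7 d IR group, here and against 2 d IR.

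These calls at 7 d leaned on single arrays. Of the 6 genes, 2 were called without 7 d IR replicate 44 (S100a10 and S100a11) and S100a11 alone when 7 d IR replicate 47, 7 d sham replicate 82, or arrays 69 and 82 together were left out. The log2 change of S100a8 was 0.97 (adjusted p = 0.161) and that of S100a9 was 0.31 (adjusted p = 0.615) without 7 d sham replicate 82. S100a8 was also not called without 7 d sham replicate 80, and S100a4 was not called without 7 d sham replicate 81. S100a11 was called in all 24 alternatives run for it, with a log2 change of 0.79 to 1.22.

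At 2 d, every IR array lay above every sham array for all 6 genes, and 2 genes passed the test. Groups did not overlap with IR higher for 13.9% of all probe sets tested, and 1.88% were called higher. S100a4 rose 1.98-fold (log2 change 0.99, SE 0.24, adjusted p = 0.0436) and S100a11 rose 1.91-fold (0.93, SE 0.20, adjusted p = 0.0285). The log2 change was larger for S100a9, at 1.31 (SE 0.34, adjusted p = 0.0560), and for S100a8, at 1.18 (SE 0.43, adjusted p = 0.132), whose error was wider. It was 0.69 for S100a10 (SE 0.19, adjusted p = 0.0691) and 0.67 for S100a6 (SE 0.23, adjusted p = 0.112). The median over the 6 genes was 0.96, beside 0.00 over all probe sets.

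The number of genes called at 2 d was 0 without 2 d IR replicate 69 or without 2 d sham replicate 71 or 72. It was 1, S100a11, when 2 d IR replicate 76, 2 d sham replicate 74, or arrays 69 and 82 together were left out. Without 7 d sham replicate 82, which enters this comparison only through the shared estimate of the spread, it was 5, all except S100a8. Without 7 d sham replicate 81 S100a4 was not called and S100a9 was, and without 7 d IR replicate 44 S100a9 was also called. With only the 6 arrays of 2 d in the fit all 6 genes were called, at adjusted p = 0.0173 to 0.0408.

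Averaged over both days, all 6 genes rose in IR against sham ventricles. In this comparison 12.4% of all probe sets were called higher. S100a8 rose 2.54-fold (log2 change 1.34, SE 0.30, adjusted p = 0.00672) and ranked 13th of 7720 genes by change. S100a9 rose 2.02-fold (1.01, SE 0.24, adjusted p = 0.00929). The genes of the S100a4 set rose 1.98-fold for S100a11 (0.98, SE 0.14, adjusted p = 0.00113), 1.91-fold for S100a4 (0.93, SE 0.17, adjusted p = 0.00260), 1.76-fold for S100a6 (0.82, SE 0.16, adjusted p = 0.00359) and 1.66-fold for S100a10 (0.73, SE 0.14, adjusted p = 0.00304). All 6 were called in each of the 21 alternatives run, including each of the 12 fits that left out 1 array.

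The IR effect was not shown to differ between the days for any of the 6 genes. The difference of the 7 d effect minus the 2 d effect was -0.60 on the log2 scale for S100a9 (SE 0.49, 95% interval -1.64 to 0.44, adjusted p = 0.849) and 0.33 for S100a8 (SE 0.60, -0.97 to 1.62, adjusted p = 0.938). For the S100a4 set it ran from -0.10 for S100a4 to 0.30 for S100a6. By limma 0 of the 6 were called and 0 had an unadjusted p under 0.05, and 0.0095% of all probe sets, a single one, were called. For S100a8 and S100a9 the intervals include differences as large as the average IR effect itself, which 3 rats per group could not show.

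Between the days, S100a8 and S100a9 were higher at 7 d than at 2 d in IR and in sham rats alike. Among sham rats, S100a9 rose 4.37-fold (log2 change 2.13, SE 0.34, adjusted p = 0.0330). This change ranked second of 7720 genes by size, and 0.057% of all probe sets, 6 of 10527, were called higher. S100a8 had a log2 change of 1.40 (SE 0.43, adjusted p = 0.289), and its 7 d sham arrays all lay above its 2 d sham arrays, which held for 7.27% of probe sets. The genes of the S100a4 set were not called, with log2 changes of 0.13 for S100a4 (95% interval -0.37 to 0.64), -0.33 for S100a6 (-0.82 to 0.16), -0.07 for S100a10 (-0.49 to 0.34) and 0.19 for S100a11 (-0.23 to 0.61).

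Among IR rats, both members of the pair rose at 7 d against 2 d. S100a8 rose 3.30-fold (log2 change 1.72, SE 0.43, adjusted p = 0.0388) and S100a9 rose 2.89-fold (1.53, SE 0.34, adjusted p = 0.0233), and 2.45% of all probe sets were called higher. For both genes every 7 d IR array lay above every 2 d IR array, which held for 10.6% of all probe sets. The genes of the S100a4 set had log2 changes of 0.03 for S100a4 (95% interval -0.47 to 0.53), -0.03 for S100a6 (-0.52 to 0.46), 0.00 for S100a10 (-0.41 to 0.42) and 0.29 for S100a11 (-0.13 to 0.71), none of them called. These comparisons of days use other arrays for IR than for sham, so that the higher level at 7 d was seen in 2 separate sets of 6 rats.

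Both day comparisons also depended on single arrays. Among sham rats S100a9 was not called without 7 d IR replicate 47, 2 d IR replicate 73, 7 d sham replicates 80 or 81, or 2 d sham replicates 71 or 72, each left out in turn. Its log2 change stayed between 1.77 and 2.53 over the alternatives. Without 7 d sham replicate 82, and without arrays 69 and 82 together, both S100a8 and S100a9 were called. Among IR rats neither gene was called without 7 d IR replicates 44 or 47 or without 2 d IR replicates 73 or 76. S100a9 alone was called without 2 d IR replicate 69, 7 d sham replicate 80, or 2 d sham replicates 71 or 74. Over the alternatives the log2 change among IR rats was 1.39 to 2.04 for S100a8 and 1.25 to 1.72 for S100a9.

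**Figure D2:**
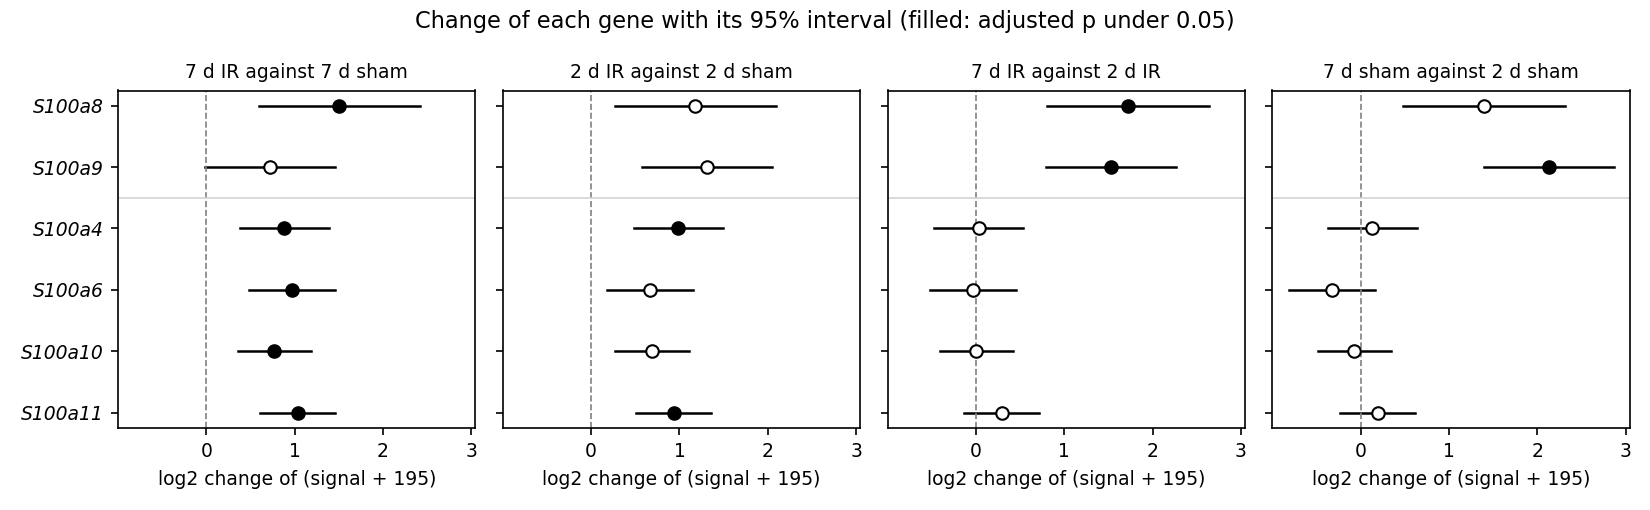
Log2 change of each S100 gene in 4 comparisons, with its 95% interval (horizontal line) and a filled point where the adjusted p was under 0.05. The genes of the S100a4 set lie right of 0 in both IR against sham comparisons and near 0 in both comparisons of days, where S100a8 and S100a9 have log2 changes of 1.40 to 2.13.

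Set side by side, the pair and the S100a4 set differed less in their change with occlusion than in their change with the day. The mean log2 level of S100a8 and S100a9, relative to its 2 d sham mean, was 2.87 ± 0.57 in 7 d IR, 1.76 ± 0.93 in 7 d sham, 1.25 ± 0.38 in 2 d IR and 0.00 ± 0.36 in 2 d sham ventricles (SD, n = 3 each). That of the S100a4 set was 0.89 ± 0.26, -0.02 ± 0.43, 0.82 ± 0.20 and 0.00 ± 0.17 in the same order. The change of the pair exceeded that of the S100a4 set by 0.20 for IR against sham at 7 d and by 0.43 at 2 d. On single arrays within groups, the SD of the level of the pair minus that of the S100a4 set was 0.49. That SD is not the error of a change between means of 3 arrays. The excess of the pair was 1.55 for 7 d against 2 d IR and 1.78 for 7 d against 2 d sham. These differences are a description of chosen genes and were given no test. At 7 d the difference from sham turned to -0.09 without 7 d IR replicate 44 and to -0.03 without 7 d sham replicate 82.

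**Figure D3:**
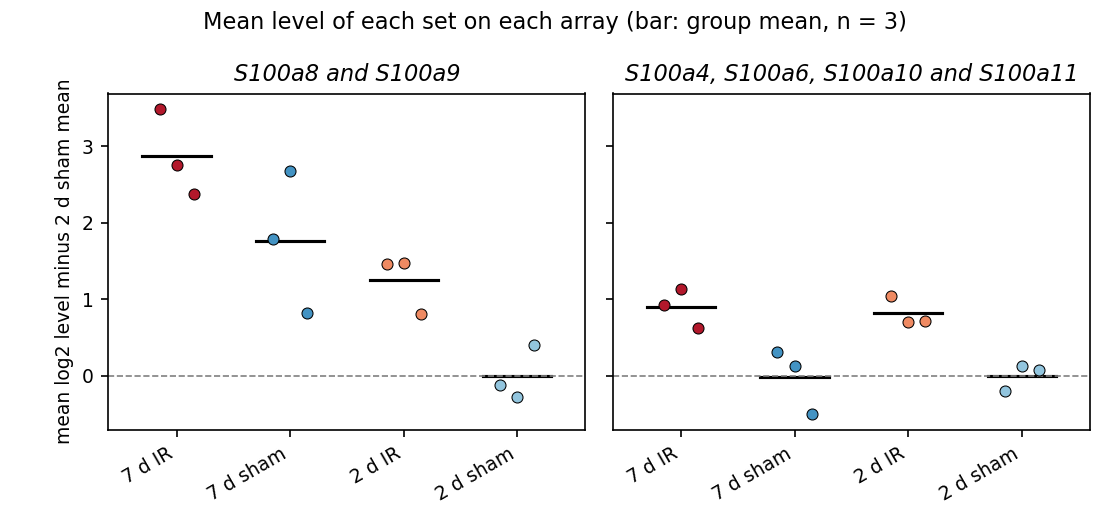
Mean log2 level of S100a8 and S100a9 (left) and of the 4 genes of the S100a4 set (right) on each array, relative to the 2 d sham mean of the set, with a bar for the mean of each group of 3 rats. The 7 d sham mean is 1.76 for the pair and -0.02 for the S100a4 set, while both sets are higher in IR than in sham ventricles of the same day.

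Levels over the 12 arrays were also compared between genes, as a description in which all genes share the arrays and the 4 groups. S100a8 and S100a9 had a Pearson r of 0.94 and a Spearman rho of 0.96 with each other, and r was 0.91 after the group means were taken out. S100a8 was 8th in likeness to S100a9 among 7719 other genes, and S100a9 was 11th in likeness to S100a8. The 5 genes most like S100a8 were Col4a1 (r = 0.98), which encodes a basement membrane collagen chain, Plpp1, Rcn3, Klhl13 and Gpx7. Those most like S100a9 were Dmbt1 (r = 0.97), Marcksl1, Postn, which encodes the matrix protein periostin, Flrt2 and Mmp14, a membrane-bound metalloproteinase. No gene of the neutrophil list was among them, but only 5 genes of that list were ranked. The highest of these was Hp, 34th in likeness to S100a8 and 36th in likeness to S100a9. With S100a8, r was 0.91 for Hp, 0.80 for Il1r2, 0.73 for Slpi, 0.63 for Lcn2 and 0.31 for Fcnb. The 2 arrays farthest from the median of S100a8 were 7 d IR replicate 44 and 2 d sham replicate 72. Without them r was 0.84, 0.62, 0.58, 0.44 and 0.18 in the same order. After the group means were taken out of all 12 arrays, r was 0.93 for Hp, 0.71 for Il1r2, 0.85 for Slpi, 0.91 for Lcn2 and 0.59 for Fcnb. With S100a9 it was then 0.79 to 0.91 for these 5 genes.

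Among genes of the S100a4 set r ran from 0.80 for S100a4 with S100a6 to 0.91 for S100a4 with S100a10, and between them and the pair it ran from 0.35 for S100a6 with S100a9 to 0.79 for S100a11 with S100a8. After the group means were taken out, r within the S100a4 set ran from 0.50 for S100a4 with S100a6 to 0.80 for S100a6 with S100a11. With the pair it then ran from 0.19 for S100a4 with S100a8 to 0.85 for S100a11 with S100a9, and it was 0.71 for S100a6 with S100a9. The 5 genes most like S100a11 were Tpm4 (r = 0.98), a tropomyosin, Prr13, Anxa1 (r = 0.97), whose protein binds S100A11, Clec4a3, a lectin receptor of myeloid cells, and Arpc1b, a subunit of the actin-nucleating Arp2/3 complex. Those most like S100a10 were Cd44 (r = 0.96), the hyaluronan receptor, Ctsb, Cmtm7, Fxyd2 and Ufc1. S100a4 was most like Cmtm7 (r = 0.96), Prelid1, Alox5ap, Caprin1 and Ufc1, and S100a6 was most like Rpl3 (r = 0.94), Elof1, Cd44, Edem2 and Ssr4. All 12 arrays carry the split into IR and sham, so that such values are high for many genes that differ between them.

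No other S100 gene was called in IR against sham at a single day. Of 13 listed, 8 were on the array and 5 were tested (S100a1, S100a3, S100a13, S100a16 and S100b), while S100g, S100a14 and S100a7l2 were too dim. S100vp, which is not in the list, is also on the array and was too dim, with a signal of 4.4 to 45.4. At 7 d 0 of the 5 were called by limma, with 1 at an unadjusted p under 0.05, and at 2 d 0 were called, with 2 at an unadjusted p under 0.05. S100a1, a regulator of calcium handling in cardiomyocytes, had a signal of 1416.5, 1583.8 and 1613.6 in 7 d IR, against 1727.4, 1544.1 and 2143.7 in 7 d sham ventricles. At 2 d it was 1364.2, 1671.6 and 1566.3 in IR, against 2139.3, 2747.9 and 1940.5 in sham ventricles, with no overlap (log2 change -0.51, adjusted p = 0.0764), and groups did not overlap with IR lower for 12.5% of all probe sets. Averaged over both days S100a1 fell (log2 change -0.35, SE 0.11, adjusted p = 0.0266), in a comparison where 10.5% of all probe sets were called lower.

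S100a3, the neighbour of S100a4 on chromosome 2, had a signal of 993.3, 1025.1 and 1018.7 in 7 d IR, against 860.9, 754.4 and 488.1 in 7 d sham ventricles. At 2 d it was 944.0, 935.2 and 574.8 in IR, against 589.1, 490.0 and 604.7 in sham ventricles, which overlapped. Averaged over both days S100a3 rose (log2 change 0.43, SE 0.13, adjusted p = 0.0314). S100a13, S100a16 and S100b were not called in that average, with log2 changes of 0.34, -0.03 and 0.05. At 2 d S100a16 was lower on every IR array, at 4990.5, 4567.0 and 5172.5, against 5364.8, 5464.3 and 5738.7 in sham ventricles. That change was small and not called (log2 change -0.16, adjusted p = 0.480), and groups did not overlap with IR lower for 12.5% of all probe sets.

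**Figure D4:**
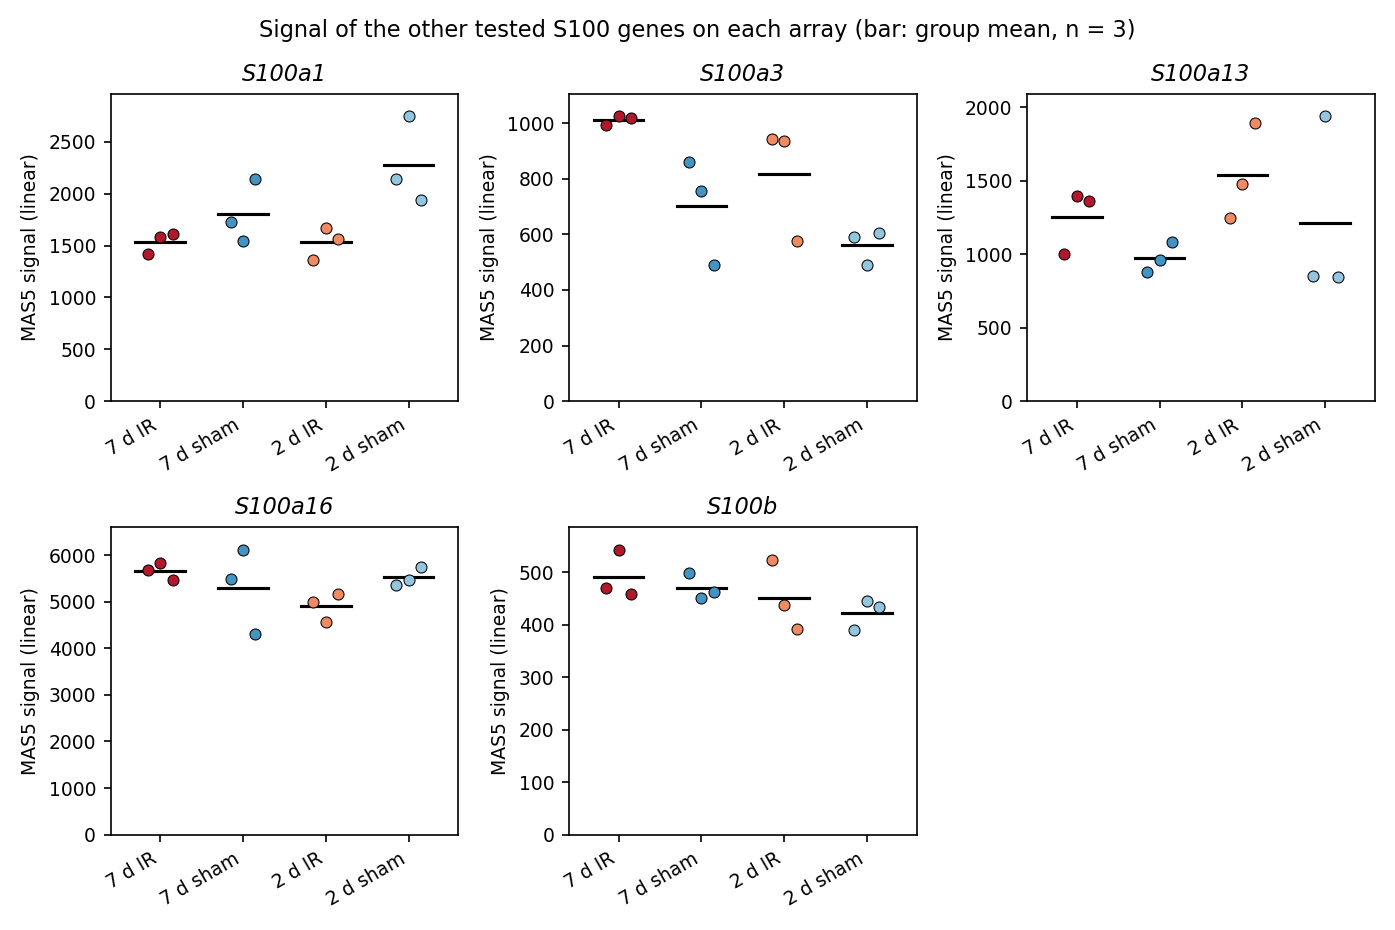
MAS5 signal (linear axis from 0) of the 5 other S100 genes tested on each of the 12 arrays, with a bar for the mean of each group of 3 rats. S100a1 and, by less, S100a16 are lower in 2 d IR than in 2 d sham ventricles on every array, and none of the 5 genes was called in IR against sham at a single day.

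Among receptors and extracellular partners of S100 proteins, 15 of 18 were on the array and 12 were tested. At 7 d 5 of the 12 rose and 0 fell, where 6.22% of all probe sets were called higher, and at 2 d 2 rose and 0 fell, where 1.88% were. Cd14, the co-receptor of TLR4, rose at both days, with a log2 change of 1.14 at 7 d (SE 0.26, adjusted p = 0.0136) and 1.31 at 2 d (SE 0.26, adjusted p = 0.0235). Its signal was 3565.4, 2330.0 and 1888.4 in 7 d IR, against 1235.3, 1207.1 and 721.0 in 7 d sham ventricles. Myd88, the adaptor below TLR4, rose at 7 d (0.62, adjusted p = 0.0459), whereas Tlr4 itself, given here as the receptor of calprotectin, was not called (0.28 at 7 d and 0.24 at 2 d, adjusted p = 0.466 and 0.594). Mcam, a cell adhesion receptor, rose at 7 d by 0.91 (adjusted p = 0.00999), and its dimmer probe set had 0.53 (adjusted p = 0.129). Plau, the urokinase plasminogen activator, rose at 2 d by 1.05 (adjusted p = 0.0308), and its dimmer probe set had 0.40 (adjusted p = 0.295). Plat, the tissue plasminogen activator, rose at 7 d by 0.54 (adjusted p = 0.0246), and Fgfr1 rose by 0.45 (adjusted p = 0.0444), with 0.23 on its dimmer probe set (adjusted p = 0.355). Plaur, the urokinase receptor, had a change of 0.55 at 7 d and 1.33 at 2 d without being called (adjusted p = 0.435 and 0.0958), and Bsg, the receptor basigin, had -0.44 and -0.42 (adjusted p = 0.0547 and 0.110).

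All 16 intracellular partners on the array, of 22 listed, were tested. At 7 d 4 rose and 1 fell, where 6.22% of all probe sets were called higher and 5.84% lower. At 2 d 2 rose and 0 fell, where 1.88% were called higher. Anxa1, the partner of S100A11, had a signal of 8799.4, 9722.9 and 7748.9 in 7 d IR, against 4765.1, 4236.8 and 2603.0 in 7 d sham ventricles, and rose there (log2 change 1.18, SE 0.19, adjusted p = 0.00548). At 2 d it was also higher on every IR array, with a change of 0.70 that was not called (adjusted p = 0.0613). Anxa2, the partner of S100A10, rose at 7 d (0.87, SE 0.19, adjusted p = 0.0139), with a change of 0.46 at 2 d (adjusted p = 0.193). Arpc1b rose at both days, by 0.81 at 7 d (adjusted p = 0.0173) and by 1.05 at 2 d (adjusted p = 0.0176), and Cyba, a subunit of the phagocyte oxidase, rose at 2 d (0.98, adjusted p = 0.0285). Rac2, a small GTPase of white blood cells, had 0.45 at 7 d and 0.91 at 2 d without being called (adjusted p = 0.232 and 0.0527). Myh9, the non-muscle myosin bound by S100A4, rose at 7 d by 0.52 (adjusted p = 0.0320). Tpm1 fell by 0.37 at 7 d on its brightest probe set (adjusted p = 0.0266), but another of its probe sets rose by 1.11 (adjusted p = 0.00946), so that Tpm1 has no single direction.

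Markers of several cell types moved with the members, and their part in the changes was not tested. Of 17 macrophage and monocyte markers tested, 12 rose in IR at 7 d and 9 at 2 d, where 6.22% and 1.88% of all probe sets were called higher. Their summed signal ran from 129298.8 to 142801.1 in 7 d IR, 48825.9 to 85397.3 in 7 d sham, 111125.2 to 171661.2 in 2 d IR and 50051.3 to 74102.9 in 2 d sham ventricles. Of 28 fibroblast and matrix markers, 19 rose in IR at 7 d and 2 at 2 d, and 16 were higher in 7 d than in 2 d IR ventricles, where 2.45% of all probe sets were called higher. The median change of this list between 7 d and 2 d IR was 1.15, against 0.03, -0.03, 0.00 and 0.29 for S100a4, S100a6, S100a10 and S100a11, and 0.25 for the macrophage and monocyte list. That difference was not tested. The summed signal of the fibroblast and matrix markers ran from 383908.4 to 480514.6 in 7 d IR, 155854.4 to 285433.4 in 7 d sham, 193231.5 to 233458.6 in 2 d IR and 143567.8 to 170748.9 in 2 d sham ventricles. Of 19 cardiomyocyte markers, 11 fell in IR at 7 d and 1 at 2 d, where 5.84% and 0.589% of all probe sets were called lower. Of 11 endothelial markers 1 rose at 7 d (Esam) and 0 at 2 d, with 1 at an unadjusted p under 0.05. Of 7 lymphocyte markers 1 rose at 7 d (Cd4) and 0 at 2 d, with 0 at an unadjusted p under 0.05.

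Of the 5 neutrophil markers tested, 0 were called in IR against sham at 7 d, with 0 at an unadjusted p under 0.05, and 1 at 2 d. Averaged over both days 2 rose, Slpi by 1.04 (adjusted p = 0.0165) and Fcnb by 0.84 (adjusted p = 0.0160). Over all probe sets, 6.22% were called higher at 7 d, 1.88% at 2 d and 12.4% in the average. For 7 d against 2 d, 0 of 5 were called by limma in sham rats, with 1 at an unadjusted p under 0.05, and 0 of 5 in IR rats, with Hp higher and Fcnb lower at an unadjusted p under 0.05. Of all probe sets, 0.057% were called higher in this comparison of days among sham rats and 2.45% among IR rats. A count of 0 of 5 is near each of these shares. The difference between the markers and the pair was not tested. Fcnb, a ficolin of neutrophils and monocytes, had a signal of 1221.1, 575.4 and 1020.4 in 7 d IR, 959.4, 817.6 and 349.4 in 7 d sham, 2258.4, 2151.6 and 1259.5 in 2 d IR and 397.4, 552.1 and 993.7 in 2 d sham ventricles. It rose in IR at 2 d (log2 change 1.33, SE 0.32, adjusted p = 0.0436), and had a change of 0.35 at 7 d (adjusted p = 0.514). Slpi, a protease inhibitor, had a change of 0.69 at 7 d (adjusted p = 0.282) and 1.40 at 2 d (adjusted p = 0.0701), and Il1r2, a decoy receptor for interleukin 1, had 0.61 (adjusted p = 0.489) and 1.40 (adjusted p = 0.142). Lcn2, an iron-sequestering protein, had 0.25 (adjusted p = 0.816) and 0.45 (adjusted p = 0.710), and Hp, or haptoglobin, had 0.41 (adjusted p = 0.461) and 0.29 (adjusted p = 0.678).

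Single arrays also stood out in these markers. Lcn2 had a signal of 30684.0 on 7 d sham replicate 81, against 6846.1 and 5355.5 on replicates 80 and 82, and S100a8 and S100a9 were also highest there among the sham arrays. Within 7 d IR, replicate 44 was highest for S100a8, S100a9 and all 5 neutrophil markers tested. The summed signal of the neutrophil markers ran from 12150.7 to 42155.0 in 7 d IR, 9389.0 to 40399.5 in 7 d sham, 16367.2 to 28010.6 in 2 d IR and 10847.8 to 14718.2 in 2 d sham ventricles. The log2 ratio of the 3′ to the 5′ probe set of Actb, a sign of RNA quality, was 0.19, 0.11 and 0.23 in 7 d IR, against 0.52, 0.83 and 0.39 in 7 d sham ventricles. It was 0.16, 0.26 and 0.30 in 2 d IR, against 0.31, 0.17 and 0.13 in 2 d sham ventricles. The Actb ratio was thus highest in the 7 d sham group, and on replicate 81 within it. The same ratio of Gapdh was 0.309, 0.438 and 0.431 in 7 d sham, against 0.276, 0.379 and 0.299 in 7 d IR ventricles. Its highest value, 0.442, was on 2 d IR replicate 76, so it did not single out replicate 81. The part of RNA quality in the level of S100a8 and S100a9 in 7 d sham ventricles was not tested.

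**Figure D5:**
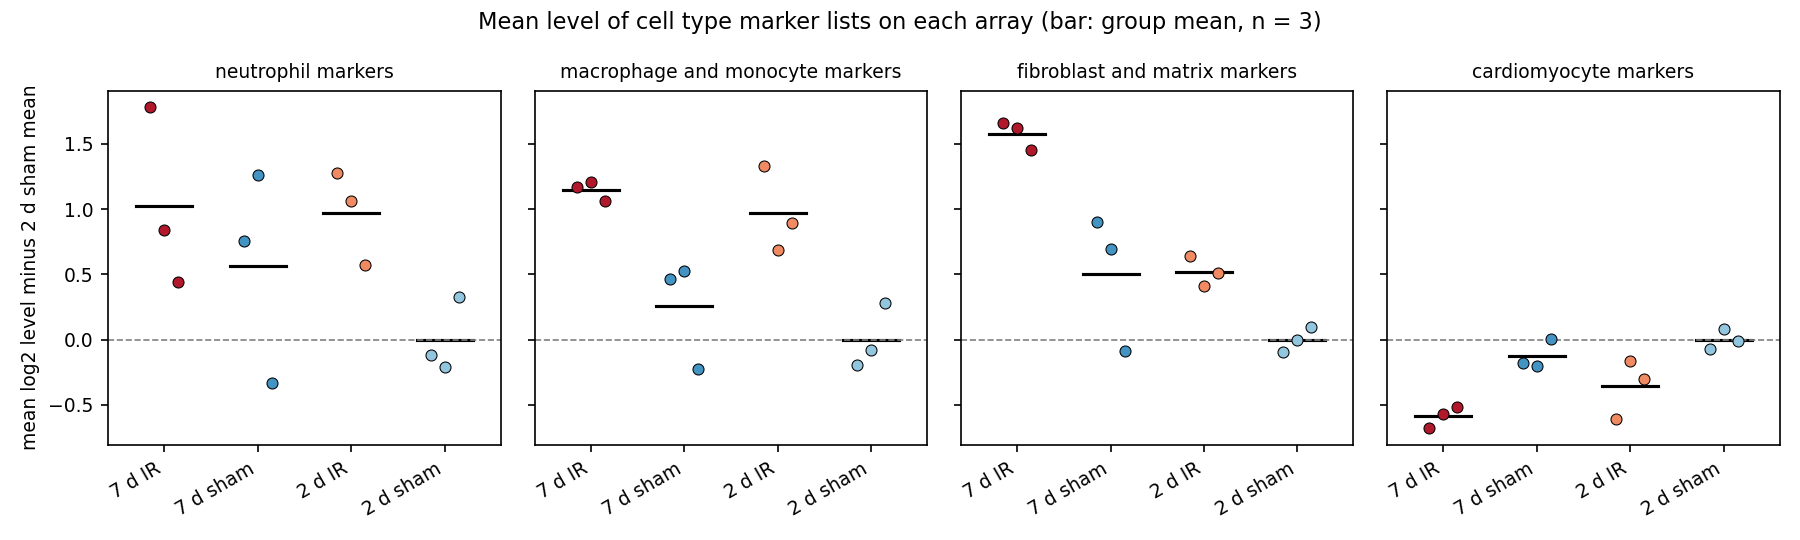
Mean log2 level of 4 marker lists on each array, relative to the 2 d sham mean of the list, with a bar for the mean of each group of 3 rats. Macrophage and monocyte markers are high in both IR groups, fibroblast and matrix markers are highest in 7 d IR, and neutrophil markers spread widely within both 7 d groups.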

How the data were processed

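The arrays measured total RNA from the ventricles of 12 rats, 3 in each of 4 groups taken from the sample titles. The design text has no 2 d sham entry and lists 7 d sham again in its place. The authors deposited a linear intensity for each probe set, made with MAS5 according to the submitters' processing notes. The MAS5 version is not given in the sources used here. The trimmed mean (2% left out at each end) was 1500.4 to 1500.5 on every array, so the authors' values had been scaled per array. Precision is limited by the number of arrays.

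The scale was log2(signal + 195), on which changes of dim genes are understated; 195 is the 20th percentile of signals, as a median over arrays. After removal of 57 controls from the 15923 probe sets, 10527 were tested, which lay above the 40th percentile of an array in at least 3 arrays. All 6 S100 probe sets passed. Gene names come from GEO's platform annotation: 12789 probe sets had 1 symbol, 312 several and 2822 none, and 12754 were found in the RefSeq gene table of GRCr8. The brightest probe set stood for a gene in lists, which left 7720 genes.

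Group means of all 12 arrays entered a single limma fit (version 3.58.1, R 4.3.3, with eBayes and an intensity trend), and figures were drawn with matplotlib 3.10.9. The fit was tested on simulated data. Tests were two-sided, with Benjamini-Hochberg adjustment over all probe sets tested. An exact permutation test of 3 against 3 rats cannot go below p = 0.1 and was not used. No batch is given, and none was fitted. The meaning of the title numbers, which lie apart for 7 d IR, is not stated. Alternatives changed the pseudocount, the filter, the normalization, the variance model, the arrays in the fit and the sham group.

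The S100 genes, the lists and the tests were chosen with earlier results of these data known. Named genes are all 6 S100 genes, the other S100 genes measured, all neutrophil markers measured, list members with the largest changes, and for each S100 gene the 5 genes most like it by Pearson r.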

Additional observations from a re-analysis of the deposited data

How the results depend on the processing

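No paired analysis was possible because the groups share no replicate numbers. All 6 genes were called for the average IR effect, and 0 for the difference between days, under every alternative run. With each array left out in turn, the number of the 6 called ran from 1 to 5 at 7 d (5 with all arrays), 0 to 5 at 2 d (2), 0 to 2 for 7 d against 2 d sham (1) and 0 to 2 for 7 d against 2 d IR (2). Without the filter on dim probe sets these 4 counts were 3, 0, 0 and 0. Without the intensity trend the 2 d count was 0, the sham count 0 and the IR day count 1. Robust eBayes gave 0 for 7 d against 2 d sham and 1 for 7 d against 2 d IR, as did a pseudocount of 16 for the second of these. With only the arrays of the groups compared, the counts were 3 at 7 d, 6 at 2 d and 0 for sham. Without arrays 69 and 82 together they were 1 at 7 d, 1 at 2 d and 2 for sham.

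Against the sham arrays of the other day, the 2 d count was 0, the 2 d IR effect of S100a8 turned to -0.22 (adjusted p = 0.843) and that of S100a9 to -0.81 (adjusted p = 0.267). Against the sham arrays of both days, 4 genes were called at 2 d (S100a4, S100a6, S100a10 and S100a11). At 7 d, S100a9 was called against the sham arrays of the other day (2.84, adjusted p = 0.000149) and of both days (1.78, adjusted p = 0.00108). S100a6 at 7 d was not called against those of the other day (0.64, adjusted p = 0.0538). The change of S100a8 and S100a9 minus that of the other 4 genes, for 7 d IR against 7 d sham, ran from -0.092 to 0.58 with single arrays left out. All other changes of sign were in differences that were not called. For 7 d against 2 d IR, median centring gave -0.00184 for S100a4 and -0.027 for S100a10, and quantile normalization gave 0.071 for S100a6. With single arrays left out this change ran from -0.17 to 0.24 for S100a4, -0.12 to 0.14 for S100a6 and -0.15 to 0.14 for S100a10. For 7 d against 2 d sham it ran from -0.021 to 0.34 for S100a4 and from -0.25 to 0.18 for S100a10. The IR effect at 7 d minus that at 2 d ran from -0.21 to 0.88 for S100a8, -0.31 to 0.11 for S100a4, -0.17 to 0.26 for S100a10 and -0.15 to 0.26 for S100a11. Without arrays 69 and 82 together it was -0.19 for S100a8, -0.035 for S100a10 and -0.023 for S100a11, and 7 d against 2 d sham was 0.18 for S100a10. The cause of these shifts was not tested.

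Over all probe sets, leaving out single arrays moved the number called between 175 and 1463 at 7 d (1270 with all arrays), 2 and 515 at 2 d (260), 1 and 76 for 7 d against 2 d sham (8) and 192 and 439 for 7 d against 2 d IR (363). Other alternatives gave 541 to 2545, 68 to 372, 1 to 83 and 247 to 556. For the average IR effect the number was 1569 to 2439 with single arrays left out and 1039 to 2424 otherwise (2414), and for the difference between days 0 to 6 (1).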
